A study of Mus musculus with 15 samples.

Results

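The 10 smooth muscle and pericyte genes Acta2, Tagln, Myh11, Cnn1, Myocd, Pdgfrb, Pdgfra, Cspg4, Rgs5 and Des were followed across regions of the mouse embryo in which blood stem cells form. They were chosen by name, as genes of the contractile apparatus, its coactivator and the markers of mural cells, from 28876 genes in the expression table, and each matched 1 gene. RNA was sequenced from the aorta-gonad-mesonephros (AGM) region of C57BL/6 embryos that carried no named allele and received no named agent. At E9.5 the region was cut into a dorsal part (E9 AoD) and a ventral part (E9 AoV), and at E10.5 into a dorsal part (E10 AoD), a ventral part (E10 AoV) and the urogenital ridges (E10 UGR). Each of these 5 groups had 3 libraries, 15 in all, and each library held tissue pooled from 15 to 34 embryos, so that spread between embryos was not measured. The study pooled tissue in separate experiments, and p-values measure the spread between such pools.

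Vascular smooth muscle cells and pericytes, together called mural cells, wrap the endothelial tube of a vessel. Mural cells are recruited to new endothelium by PDGF-B, which endothelial cells secrete and which mural precursors sense through PDGFRB. In smooth muscle, serum response factor (SRF) binds CArG boxes in the promoters of contractile genes, and its coactivator myocardin switches those genes on. The wall of the embryonic dorsal aorta gains such cells from the surrounding mesenchyme during midgestation. No single one of the genes is restricted to mural cells in an embryo: Acta2, Tagln and Des are also used in early heart and skeletal muscle, and Pdgfra is widespread in mesenchyme.

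The members lie on 7 chromosomes in build NCBIM37, the build the reads were aligned to, and each is an annotated protein-coding gene. Acta2 is at chr19:34315580-34329826 on the minus strand, Tagln at chr9:45737711-45744141 on the minus strand, Myh11 at chr16:14194620-14291501 on the minus strand and Cnn1 at chr9:21903725-21914074 on the plus strand. Myocd is at chr11:64990063-65083491 on the minus strand and Pdgfra at chr5:75548316-75594229 on the plus strand. Cspg4 is at chr9:56712911-56747677, Rgs5 at chr1:171585632-171625944 and Des at chr1:75356904-75365154, all on the plus strand. Of the 50-base stretches of their exons, 0.404% in Acta2 also occurred in a transcript of another gene (Actg1), 0.392% in Myh11 (Myh9 and Myh10), 0.0184% in Myocd (Foxp1) and none in the other 7.

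Promoter windows were taken from RefSeq for build GRCm38.p6 and hold the 250 bases before the annotated start. The RefSeq table had a window for 6 of the 10 members, namely Acta2, Cnn1, Pdgfra, Cspg4, Rgs5 and Des. Those of 4 genes are printed here 5′ to 3′ on the strand of the gene, because they belong to the pairs whose RNA levels went together across the libraries: Acta2 with Cnn1, and Rgs5 with Des. Capitals mark stretches that differ from a CArG box by a single G or C among its 6 central bases.
Acta2: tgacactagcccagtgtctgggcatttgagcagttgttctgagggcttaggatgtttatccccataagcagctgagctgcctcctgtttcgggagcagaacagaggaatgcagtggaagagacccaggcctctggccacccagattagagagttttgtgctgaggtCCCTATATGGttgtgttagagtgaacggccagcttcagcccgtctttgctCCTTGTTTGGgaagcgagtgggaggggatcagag
Cnn1: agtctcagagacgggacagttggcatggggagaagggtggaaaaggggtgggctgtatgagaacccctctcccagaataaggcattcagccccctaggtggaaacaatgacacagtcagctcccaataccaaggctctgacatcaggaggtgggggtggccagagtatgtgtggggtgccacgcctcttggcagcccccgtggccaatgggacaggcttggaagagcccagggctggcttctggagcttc
Rgs5: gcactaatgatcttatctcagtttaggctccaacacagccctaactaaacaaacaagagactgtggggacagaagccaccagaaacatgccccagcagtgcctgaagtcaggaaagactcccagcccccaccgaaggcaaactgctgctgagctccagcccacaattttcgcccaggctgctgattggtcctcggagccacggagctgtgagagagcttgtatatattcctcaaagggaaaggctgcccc
Des: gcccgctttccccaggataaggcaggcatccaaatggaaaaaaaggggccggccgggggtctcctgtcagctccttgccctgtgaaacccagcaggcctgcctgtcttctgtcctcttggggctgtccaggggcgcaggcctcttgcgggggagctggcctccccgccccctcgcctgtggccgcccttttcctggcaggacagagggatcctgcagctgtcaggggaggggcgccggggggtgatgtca
The Acta2 window is chr19:34255374-34255623 on the minus strand, the Cnn1 window chr9:22099003-22099252, the Rgs5 window chr1:169655251-169655500 and the Des window chr1:75360042-75360291, the last 3 on the plus strand. A complete CArG box, searched by name on both strands (the motif reads the same on each), was in none of the 6 member windows and in 1.47% of 32851 windows of this length. Of 25 genes listed for the contractile apparatus 21 had a window, and 3 of these held a complete box, against 1.62% of all genes with a window. The listed cardiac muscle markers had 3 of 14. The Acta2 window held a near match at 84 bases (CCCTATATGG) and another at 34 bases (CCTTGTTTGG) before the start. A near match of this kind was in 7.24% of all windows, and 2 or more were in 0.548%. The other 5 member windows held none. These are matches of letters in a short window and no measurement of binding.

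Levels are given in RPM (reads-per-million among reads assigned to genes), without correction for length. Libraries held between 33.8 and 48.5 megareads (M) assigned to genes, inferred from the size of 1 read in the table, and a level of 3 reads corresponded to between 0.0618 and 0.0888 RPM. All 10 members passed the filter of 0.5 RPM in at least 1 library, which left 18553 genes, and their lowest value was about 21 reads (Myh11 in E9 AoD replicate 3). Libraries of a group correlated with each other across genes at 0.993 to 0.997 (Pearson). E9 AoD replicate 3 was the lowest of its group for 9 of the 10 members, against 35.4% of tested genes. Its value was under 0.7 of the mean of the other E9 AoD libraries for 7 members, against 7.46% of tested genes. Results that rest on E9 AoD are given below also without it where that changes a pass or a call. Sizes moved as well: without it the log2 difference of E10 AoD from E9 AoD was 2.50 in place of 2.95 for Cnn1 and 1.32 in place of 1.73 for Rgs5. In these bulk tissues, fewer cells of a type and less RNA per cell cannot be told apart.

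Acta2 encodes smooth muscle α-actin, the thin filament of the contractile apparatus. It stood at 48.1, 49.4 and 26.6 RPM in E9 AoD, at 280, 259 and 265 in E9 AoV, at 372, 287 and 373 in E10 AoD, at 317, 333 and 361 in E10 AoV, and at 34.1, 36.8 and 18.5 in E10 UGR. The 9 libraries of the E9 AoV, E10 AoD and E10 AoV groups thus lay between 259 and 373 RPM, and the 6 of E9 AoD and E10 UGR between 18.5 and 49.4. From E9 to E10 Acta2 rose 8.55-fold in AoD (log2 3.10 ± 0.24 SE, limma adjusted p = 6.27e-08). In AoV the same step was 1.26-fold (log2 0.33 ± 0.24, limma adjusted p = 0.283), although the ranges of E9 AoV and E10 AoV did not overlap. With only these groups in the fit, and so without the spread of E9 AoD and E10 UGR, the step passed the test (limma adjusted p = 1.56e-03). Acta2 was 6.71-fold higher in E9 AoV than in E9 AoD (limma adjusted p = 3.07e-07), whereas at E10 the ratio of AoV to AoD was 0.985 (limma adjusted p = 0.96).

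Tagln encodes transgelin, which binds and bundles actin filaments. Its values were 62.0, 67.8 and 34.7 RPM in E9 AoD, 152, 158 and 156 in E9 AoV, 254, 200 and 272 in E10 AoD, 298, 292 and 335 in E10 AoV, and 33.9, 27.1 and 24.0 in E10 UGR. No neighbouring groups overlapped in this order, which ran from E10 UGR through E9 AoD, E9 AoV and E10 AoD to E10 AoV. Tagln rose 4.55-fold in AoD from E9 to E10 (log2 2.19 ± 0.20 SE, limma adjusted p = 2.81e-07) and 1.98-fold in AoV (log2 0.99 ± 0.20, limma adjusted p = 8.19e-04). The difference between E10 AoV and E10 AoD was 1.28-fold and did not pass the test (limma adjusted p = 0.178), though the groups did not overlap. It passed as higher in E10 AoV without E9 AoD replicate 3, whose spread enters the shared error (limma adjusted p = 0.0298), and with only the E10 aorta groups in the fit (limma adjusted p = 0.0288).

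Cnn1 encodes calponin 1, an actin-binding protein of differentiated smooth muscle that restrains the myosin motor. It was read at 3.12, 4.14 and 1.35 RPM in E9 AoD, 9.75 to 11.1 in the 3 libraries of E9 AoV, 22.4, 18.1 and 22.1 in E10 AoD, 28.8, 28.3 and 31.9 in E10 AoV, and 1.78, 1.58 and 1.80 in E10 UGR. The order of groups was that of Tagln, but E9 AoD and E10 UGR overlapped. Cnn1 rose 7.71-fold in AoD (log2 2.95 ± 0.26 SE, limma adjusted p = 2.54e-07) and 2.82-fold in AoV (log2 1.5 ± 0.26, limma adjusted p = 2.83e-04). Each E10 AoV library exceeded each E10 AoD library, with a 1.42-fold difference that did not pass the test (limma adjusted p = 0.15). As for Tagln, it passed without E9 AoD replicate 3 (limma adjusted p = 2.38e-03) and with only the E10 aorta groups in the fit (limma adjusted p = 0.0022).

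Myh11 encodes the smooth muscle myosin heavy chain, the motor of the contractile apparatus and a late marker of its maturation. Its values were 0.629, 1.29 and 0.446 RPM in E9 AoD, 2.50, 2.45 and 2.06 in E9 AoV, 21.9, 22.3 and 22.0 in E10 AoD, 23.8, 28.0 and 19.9 in E10 AoV, and 1.76, 1.59 and 1.10 in E10 UGR. Only the E10 aorta libraries reached 19.9 RPM or more, while the other 9 libraries lay at or below 2.50. Myh11 rose 27.0-fold in AoD from E9 to E10 (log2 4.75 ± 0.26 SE, limma adjusted p = 2.46e-09), and 0.0916% of tested genes had a larger absolute log2 fold change there. In AoV it rose 9.79-fold (log2 3.29 ± 0.26, limma adjusted p = 1.15e-07). Unlike Acta2, Myh11 was thus still low in E9 AoV: the ratio of Myh11 to Acta2 in RPM was 0.00777 to 0.00946 in the E9 AoV libraries, 0.0589 to 0.0777 in E10 AoD and 0.0551 to 0.0841 in E10 AoV. A high ratio was not particular to the E10 aorta, since that of E10 UGR (0.0432 to 0.0595) overlapped both of its parts. In E9 AoD the ratio was 0.0131 to 0.0261.

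**Figure D1:**
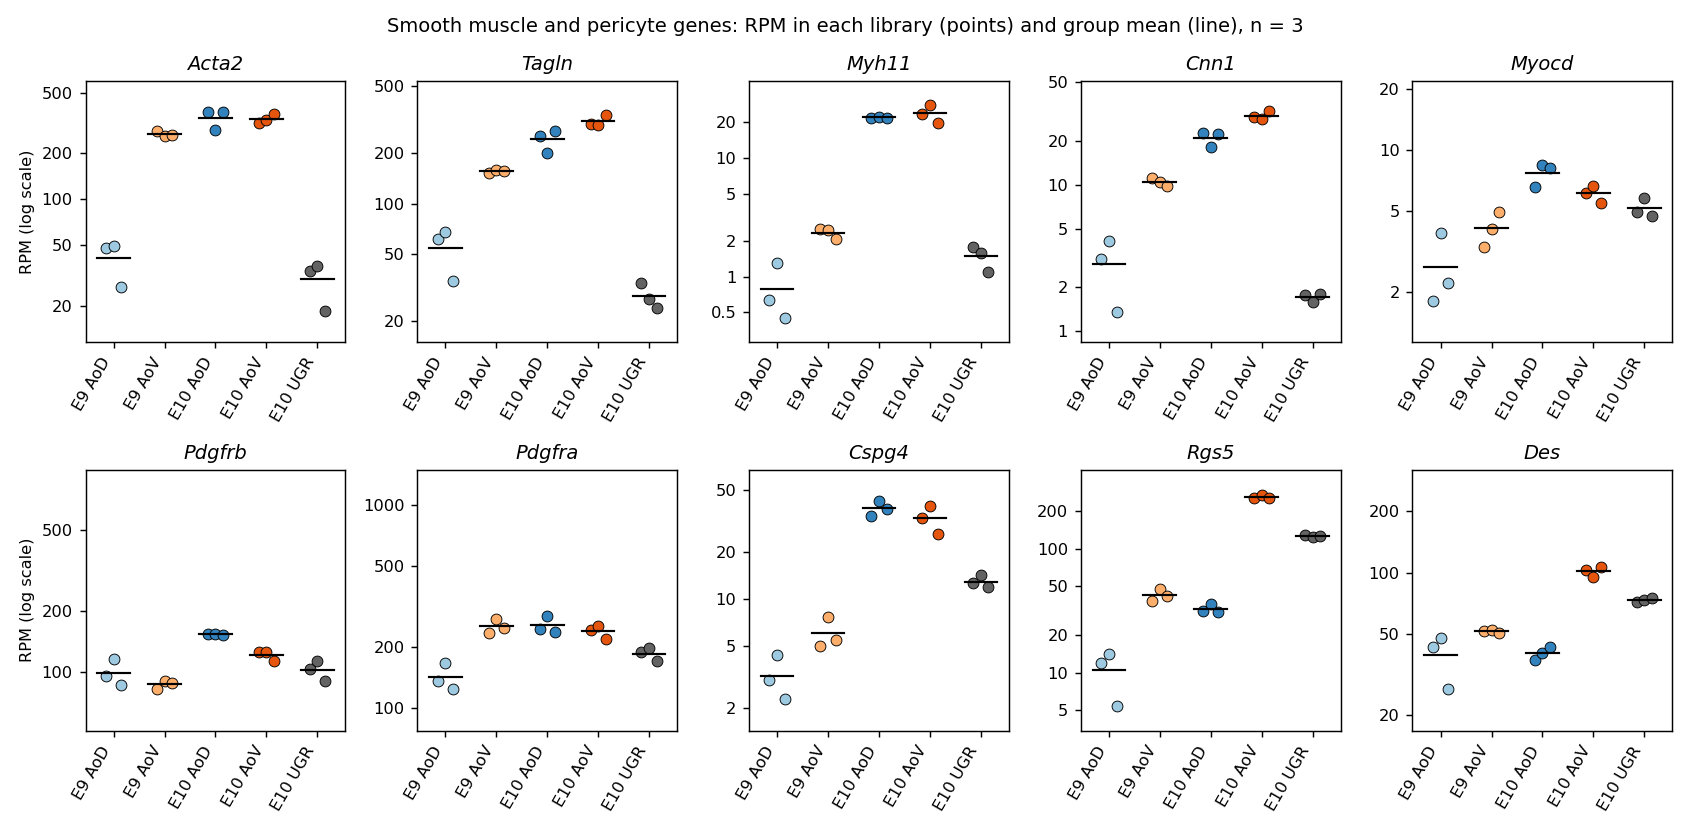
RPM of each gene (log axis, a separate range for each panel) in the 15 libraries by group, with points for single libraries and a line for the mean of 3. In E9 AoV, Acta2 (259 to 280 RPM) is near its E10 aorta range, Tagln and Cnn1 lie between E9 AoD and the E10 aorta, and Myh11 is at or below 2.50 RPM. Cspg4 lies between the E9 groups and the E10 aorta in E10 UGR (11.9 to 14.2 RPM), and Rgs5 and Des are highest in E10 AoV.

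Myocd, the myocardin coactivator, had the lowest peak of the members per kilobase of exon. Not corrected for length, it was read at 1.82, 3.92 and 2.22 RPM in E9 AoD, 3.33, 4.08 and 4.99 in E9 AoV, 6.56, 8.43 and 8.15 in E10 AoD, 6.18, 6.69 and 5.52 in E10 AoV, and 4.98, 5.84 and 4.76 in E10 UGR. Every pair of neighbours in the order of group means overlapped. Myocd rose 2.97-fold in AoD from E9 to E10 (log2 1.57 ± 0.22 SE, limma adjusted p = 2.31e-05) and 1.49-fold in AoV (log2 0.57 ± 0.22, limma adjusted p = 0.0442). The step in AoV did not pass on leaving out 8 of the 15 libraries one at a time (limma adjusted p = 0.0519 to 0.163). E10 UGR did not differ from E10 AoV past the threshold (1.18-fold, limma adjusted p = 0.467) nor from E10 AoD (1.47-fold, limma adjusted p = 0.0558), although Acta2, Tagln, Cnn1 and Myh11 were each at least 8.53-fold lower there than in either E10 aorta group. The result against E10 AoD was borderline, and those groups did not overlap. Myocd passed as higher in E10 AoD on leaving out 4 libraries one at a time (limma adjusted p = 0.00823 to 0.0488). It also passed with only these groups in the fit (limma adjusted p = 0.00667), and with another pseudocount, other scalings, library weights or a replicate block (limma adjusted p = 0.0222 to 0.0374). Across the 14 genes listed as SRF and myocardin factors, 9 rose and 1 fell in AoD from E9 to E10, where 30.0% of all tested genes rose, and 10 rose and 1 fell in AoV, where 23.6% rose. The largest changes called in AoD were those of Klf4 (log2 2.88), Tbx20 (log2 2.72) and Fhl2 (log2 2.13).

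Cspg4 encodes the NG2 proteoglycan of the pericyte surface. Its values were 3.0, 4.38 and 2.27 RPM in E9 AoD, 5.01, 7.70 and 5.42 in E9 AoV, 34.2, 42.5 and 38.2 in E10 AoD, 33.5, 39.9 and 26.4 in E10 AoV, and 12.7, 14.2 and 11.9 in E10 UGR. All E10 libraries lay above all E9 libraries. Cspg4 rose 11.9-fold in AoD (log2 3.58 ± 0.21 SE, limma adjusted p = 4.80e-09) and 5.45-fold in AoV (log2 2.45 ± 0.21, limma adjusted p = 2.79e-07). E10 AoV and E10 AoD overlapped (ratio 0.86, limma adjusted p = 0.462).

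Rgs5 encodes a regulator of G-protein signalling that is widely used as a pericyte marker. It stood at 11.9, 14.1 and 5.43 RPM in E9 AoD, 37.9, 47.5 and 41.8 in E9 AoV, 31.3, 35.5 and 30.6 in E10 AoD, 257, 271 and 256 in E10 AoV, and 128, 124 and 126 in E10 UGR. No neighbouring groups overlapped, and the E10 UGR libraries stood above the E9 AoV and E10 AoD ones. Rgs5 rose 6.18-fold in AoV (log2 2.63 ± 0.23 SE, limma adjusted p = 3.84e-07) and 3.31-fold in AoD (log2 1.73 ± 0.23, limma adjusted p = 1.63e-05). In E10 AoV it was 8.04-fold higher than in E10 AoD (log2 3.01 ± 0.23, limma adjusted p = 1.01e-07), and 0.997% of tested genes had a larger absolute log2 fold change. Its E10 AoD level was 3.88-fold below that of E10 UGR (limma adjusted p = 7.38e-06).

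Des encodes desmin, the intermediate filament of muscle cells, which is also found in pericytes. It was read at 43.2, 47.8 and 26.7 RPM in E9 AoD, 51.4, 52.5 and 50.4 in E9 AoV, 37.2, 40.4 and 43.1 in E10 AoD, 103, 95.7 and 106 in E10 AoV, and 71.4, 73.3 and 75.0 in E10 UGR. The order of group means was that of Rgs5, and E9 AoD and E10 AoD overlapped. Des was 2.52-fold higher in E10 AoV than in E10 AoD (log2 1.34 ± 0.15 SE, limma adjusted p = 3.79e-06) and rose 1.97-fold in AoV from E9 to E10 (limma adjusted p = 6.93e-05). In AoD the same step was 1.05-fold (limma adjusted p = 0.675), and without E9 AoD replicate 3 its log2 value was -0.18 (limma adjusted p = 0.0343).

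The PDGF receptors varied least among the members, by 1.77-fold (Pdgfrb) and 1.79-fold (Pdgfra) between the highest and the lowest group mean. Pdgfrb, the receptor through which mural cells sense PDGF-B, lies at chr18:61204804-61244715 on the plus strand. It was read at 95.5, 116 and 86.8 RPM in E9 AoD, 82.4, 90.1 and 88.9 in E9 AoV, 155, 155 and 152 in E10 AoD, 126, 126 and 114 in E10 AoV, and 104, 114 and 90.4 in E10 UGR. E10 AoD stood above all other groups, and E10 AoV overlapped E10 UGR. Pdgfrb rose 1.56-fold in AoD (log2 0.64 ± 0.09 SE, limma adjusted p = 3.75e-05) and 1.40-fold in AoV (log2 0.48 ± 0.09, limma adjusted p = 6.74e-04). It was the one member that passed the test as lower in E10 AoV than in E10 AoD (1.26-fold, limma adjusted p = 0.0111, and 0.0505 without E10 AoV replicate 3).

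Pdgfra, the receptor for PDGF-A and PDGF-C, was read at 137, 168 and 124 RPM in E9 AoD, 235, 276 and 248 in E9 AoV, 246, 283 and 238 in E10 AoD, 244, 255 and 220 in E10 AoV, and 189, 198 and 170 in E10 UGR. The groups E9 AoV, E10 AoD and E10 AoV overlapped, and each E9 AoD library was below every library of those 3 groups. Pdgfra rose 1.80-fold in AoD (log2 0.85 ± 0.10 SE, limma adjusted p = 6.43e-06), while the ratio of E10 AoV to E9 AoV was 0.948 (limma adjusted p = 0.575). The ratio of Pdgfrb to Pdgfra in RPM was 0.69 to 0.70 in the E9 AoD libraries, 0.326 to 0.359 in E9 AoV, 0.548 to 0.639 in E10 AoD, 0.494 to 0.518 in E10 AoV and 0.532 to 0.576 in E10 UGR, so the E9 AoV libraries lay apart from all others at the low end. Of the 13 genes listed for the PDGF pathway, the receptors included, 9 rose and 1 fell in AoD from E9 to E10 (30.0% of all tested genes rose), and 6 rose and 1 fell in AoV (23.6% rose). Pdgfa, a ligand of PDGFRA, was the gene that fell, by 1.6 on the log2 scale in AoD and by 1.05 in AoV. Pdgfd, a ligand of PDGFRB, rose in AoD (log2 1.77) and in AoV (log2 0.54).

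Levels of different genes were compared per kilobase of exon. On this scale (RPM per kb, mean of 3) Acta2 had the highest level of the members in E9 AoV (150.5) and E10 AoD (193.1), Tagln in E9 AoD (34.6) and E10 AoV (194.4), and Rgs5 in E10 UGR (27.7), where Pdgfra stood at 27.6. Myh11 had the lowest level in E9 AoD (0.119), E9 AoV (0.352) and E10 UGR (0.224), and Myocd in E10 AoD (1.16) and E10 AoV (0.924). In E10 AoV, Tagln (194.4) and Acta2 (189.2) were followed by Rgs5 (57.5), Pdgfra (35.6), Des (27.1), Pdgfrb (22.3), Cnn1 (12.5), Cspg4 (4.13), Myh11 (3.60) and Myocd (0.924). In E10 AoD, where Rgs5 was at 7.14, Pdgfra (37.9) and Pdgfrb (28.1) followed Acta2 (193.1) and Tagln (152.6).

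**Figure D2:**
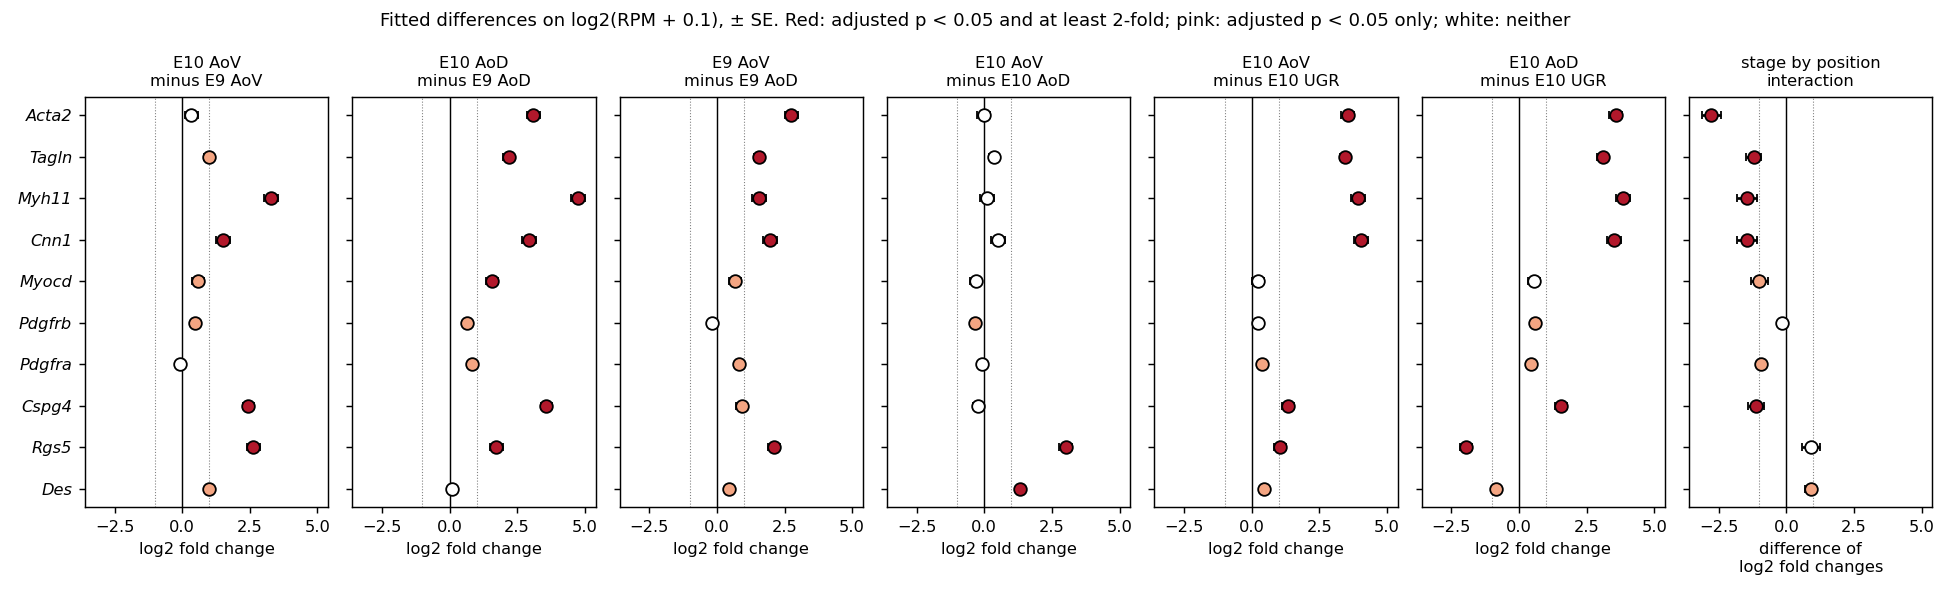
Fitted log2 differences with their SE (bars) for the 10 genes in 6 comparisons of groups and, at the right, the change from E9 to E10 in AoV minus that in AoD. Red points were called, pink points passed the test with less than a 2-fold difference, and white points did not pass. The contractile genes Acta2, Tagln, Myh11 and Cnn1 are red in the comparison of dorsal stages and white between E10 AoV and E10 AoD, where Rgs5 and Des are red.

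Between E9 and E10 more members were called on the dorsal side of the aorta than on the ventral side. A gene was called where its adjusted p over the 18553 genes was below 0.05 and its fold at least 2. In AoD 7 members were called higher (Acta2, Tagln, Myh11, Cnn1, Myocd, Cspg4 and Rgs5), against 8.6% of all tested genes called higher, and with Pdgfrb and Pdgfra 9 passed the test as higher, against 30.0%. In AoV 4 were called higher (Myh11, Cnn1, Cspg4 and Rgs5), against 6.04% of tested genes, and with Tagln, Myocd, Pdgfrb and Des 8 passed as higher, against 23.6%. The median log2 difference over the 10 members was 1.96 in AoD and 0.98 in AoV, and over all tested genes it was -0.002 in both. The one negative difference was that of Pdgfra in AoV (log2 -0.08). Without E10 AoV replicate 2, Tagln (log2 1.02) and Des (log2 1.02) also reached 2-fold in AoV, which made 6 calls.

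Markers of other tissues also moved with stage. In AoD the endothelial markers passed as higher in 9 of 10 cases (summed level 361.3 to 480.5 RPM in E9 AoD and 705.9 to 777.8 in E10 AoD), the neural crest and glial markers in 7 of 7 (123.1 to 139.5 against 303.2 to 316.7) and the sclerotome markers in 5 of 6 (470.3 to 530.4 against 685.8 to 859.0). The remaining sclerotome marker passed as lower. The skeletal muscle markers were called higher in 8 of 13 cases and lower in 1 (52.9 to 62.5 RPM against 107.7 to 187.2). Of the gut mesenchyme markers 3 of 7 were called higher (35.0 to 60.6 RPM against 135.9 to 176.6), and 3 did not pass. Foxf2 had the largest of these changes, from a mean of 7.68 to 88.7 RPM. Of the 12 cardiac markers tested 6 rose and 2 fell (summed 66.6 to 88.1 RPM against 281.8 to 295.7). The largest changes called among them were those of Tbx5 (log2 -3.80), Actc1 (log2 2.39) and Myh7 (log2 1.80). Actc1 had means of 39.1 RPM in E9 AoD and 204.0 in E10 AoD. In AoV the urogenital ridge markers were called higher in 7 of 9 cases (183.5 to 197.0 RPM in E9 AoV and 755.2 to 804.8 in E10 AoV). The cardiac markers were called lower there in 7 of 12 cases, with a summed level of 288.9 to 359.0 RPM at E9 and 290.2 to 305.1 at E10. Among them Myh6 fell in AoV from a mean of 39.8 to 1.06 RPM, while Actc1, which did not pass, had means of 104.2 and 144.7. The gut mesenchyme markers were called lower in AoV in 4 of 7 cases (444.2 to 500.5 RPM against 234.0 to 236.1). The part of these tissues in the changes of the members was not tested.

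The listed contractile genes, of which 24 could be followed and 5 are members, were counted in the same comparisons. In AoD 19 rose and 1 fell with stage, 12 of them called higher, and in AoV 13 rose and 5 fell, 3 of them called higher. Of all tested genes 30.0% rose in AoD, with 8.6% called higher, and 23.6% rose in AoV, with 6.04% called higher. Actg2, the enteric smooth muscle γ-actin, rose from 0.785 ± 0.365 to 19.5 ± 3.50 RPM in AoD and from 6.35 ± 0.543 to 24.1 ± 1.95 in AoV (mean ± SD, n = 3). Among the 18 listed pericyte genes, 3 of them members, 17 were tested. Of these 16 rose in AoD with stage, and 13 rose and 2 fell in AoV. Ndufa4l2, a mitochondrial protein gene used as a pericyte marker, rose from 0.736 ± 0.193 to 21.0 ± 2.82 RPM in AoD. Vtn, the vitronectin gene, fell in AoV from 26.3 ± 3.81 to 0.908 ± 0.0986 RPM. Higd1b, another pericyte marker, was at or under 3 reads in all 15 libraries, at 0 in E10 AoV and E10 UGR, and was not tested. The 9 hepatic and yolk sac type markers, Vtn not among them, fell as a list in AoV in the same comparison, 9 of 9 called lower, with a summed level of 545.8 to 880.6 RPM in E9 AoV and 12.99 to 14.36 in E10 AoV. Their part in the AoV result was not tested.

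In the comparison of the ventral with the dorsal part at E9, 5 members were called higher in AoV (Acta2, Tagln, Myh11, Cnn1 and Rgs5), against 8.32% of tested genes. Myocd, Pdgfra, Cspg4 and Des passed with less than 2-fold, which made 9 against 27.5% of tested genes, and Pdgfrb did not pass (ratio 0.882, limma adjusted p = 0.13), but passed as lower in E9 AoV without E9 AoD replicate 3 (limma adjusted p = 0.0293). Myocd did not pass without E9 AoD replicate 1, E9 AoD replicate 3 or E9 AoV replicate 3 (limma adjusted p = 0.0708 to 0.101), nor Des without E9 AoV replicate 2 (limma adjusted p = 0.0607). With only the E9 groups in the fit neither Myocd (limma adjusted p = 0.0879) nor Des (limma adjusted p = 0.11) passed, and quantile normalization also ended the pass of Myocd (limma adjusted p = 0.10). Beside Acta2, the fold differences were 4.32 for Rgs5 (log2 2.11 ± 0.23 SE), 3.90 for Cnn1 (log2 1.96 ± 0.26), 2.96 for Myh11 (log2 1.56 ± 0.26, and 0.93 with a pseudocount of 1 RPM, short of a call) and 2.95 for Tagln (log2 1.56 ± 0.20). The members' median log2 difference was 1.24, and that of all tested genes was 0.018. Without E9 AoD replicate 2 Cspg4 was called as well (log2 1.16), as it was without E9 AoV replicate 1 (log2 1.03).

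Of the listed contractile genes, 22 of 24 were higher in E9 AoV, against 27.5% of all tested genes. Actg2 and Synpo2, which encodes an actin-binding protein of the Z-disc, had the largest differences, each of 2.95 on the log2 scale. Synpo2 was at 30.7 ± 6.14 RPM in E9 AoV, 3.84 ± 0.265 in E9 AoD, 6.30 ± 1.29 in E10 AoD and 16.7 ± 1.49 in E10 AoV (mean ± SD, n = 3). Markers of other tissues also differed between E9 AoV and E9 AoD. The 12 cardiac muscle markers tested were all called higher in E9 AoV, with a summed level over the 15 listed of 288.9 to 359.0 RPM against 66.6 to 88.1, and Myh6, the α-cardiac myosin gene, averaged 39.8 RPM in E9 AoV and 1.19 in E9 AoD. Of the gut mesenchyme markers 7 of 7 were called higher (summed 444.2 to 500.5 RPM against 35.0 to 60.6), and of the endothelial markers 10 of 10 passed as higher (698.6 to 750.7 against 361.3 to 480.5). The skeletal muscle markers went the other way, with 10 of 13 tested lower in E9 AoV (11.3 to 15.2 RPM against 52.9 to 62.5). The hepatic and yolk sac type markers were called higher in E9 AoV, 9 of 9 (545.8 to 880.6 RPM against 7.97 to 38.6). The part of these tissues in the difference of the members was not tested.

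Fewer members were called between the ventral and dorsal parts at E10. Rgs5 and Des were called higher in AoV, 2 of 10 members against 5.81% of tested genes, and Pdgfrb passed as lower. The test was thus passed in either direction by 3 members, against 35.5% of tested genes. Acta2, Tagln, Myh11, Cnn1, Myocd, Pdgfra and Cspg4 did not pass, of which Tagln and Cnn1 passed as higher without E9 AoD replicate 3. The members' median was 0.04 on the log2 scale against 0.017 for all tested genes. Of the 24 contractile genes 6 were higher and 2 lower in E10 AoV, a share near the 35.5% of all tested genes that passed in either direction. The called ones were Smtnl2 (log2 1.6), Synpo2 (log2 1.41) and Des. Of the 17 pericyte genes 6 were higher and 6 lower. Vtn was lower in AoV by 3.72 and Ebf2, a transcription factor gene, by 3.0 on the log2 scale, whereas Rgs5 was higher by 3.01. In this comparison the sclerotome markers (6 of 6 lower in AoV) and the neural crest and glial markers (7 of 7 lower) stood higher in AoD, with summed levels of 122.9 to 128.2 RPM and 65.2 to 95.2 RPM in AoV against 685.8 to 859.0 and 303.2 to 316.7 in AoD. The urogenital ridge markers were all higher in E10 AoV than in E10 AoD (9 of 9 passed, 755.2 to 804.8 RPM against 64.5 to 91.9). Only their sum was like that of E10 UGR (756.7 to 833.5): of the 9 single markers, 3 passed as higher and 4 as lower in E10 AoV than in E10 UGR. E10 AoV and E10 UGR were the groups in which Rgs5 and Des were highest. The part of these tissues in the difference of Rgs5 and Des was not tested.

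The urogenital ridges served as E10 tissue that lies beside the aorta. With E10 UGR as the reference, E10 AoV had 6 members called higher (Acta2, Tagln, Myh11, Cnn1, Cspg4 and Rgs5), against 3.84% of tested genes, and with Pdgfra and Des 8 passed as higher, against 12.5%. The folds were 16.4 for Cnn1, 15.3 for Myh11, 11.8 for Acta2 and 10.9 for Tagln, then 2.53 for Cspg4 and 2.07 for Rgs5. Des lost its pass on leaving out 5 libraries one at a time (limma adjusted p = 0.0522 to 0.0757) and Pdgfra without E10 AoV replicate 2 or E10 UGR replicate 3 (limma adjusted p = 0.0642 to 0.0681). Pdgfrb, which did not pass (limma adjusted p = 0.0575), did so without E9 AoD replicate 2, E9 AoD replicate 3 or E10 UGR replicate 2 (limma adjusted p = 0.0187 to 0.0337). E10 AoD had 5 called higher (Acta2, Tagln, Myh11, Cnn1 and Cspg4), against 4.76% of tested genes, and 1 was called lower (Rgs5), against 6.56%. Pdgfrb (1.5-fold) and Pdgfra (1.38-fold) passed as higher, and Des as lower (1.82-fold, limma adjusted p = 2.27e-04), so 7 passed as higher, against 14.5% of tested genes, and 2 as lower, against 24.8%. These comparisons share the E10 UGR libraries, so their values stand side by side and not as independent support. The members' median was 1.2 for AoV and 1.07 for AoD on the log2 scale, against -0.047 and -0.055 over all tested genes. Of the 24 contractile genes 20 passed as higher in AoV, and 20 as higher and 2 as lower in AoD. The gut mesenchyme markers were called higher in AoV, 7 of 7 (234.0 to 236.1 RPM against 12.2 to 15.1), and the skeletal muscle markers were lower in E10 AoV, 11 of 13 tested (15.0 to 19.0 RPM against 51.6 to 138.9). In E10 AoD the sclerotome markers (6 of 6 passed, 685.8 to 859.0 RPM against 183.9 to 217.7 in E10 UGR), the neural crest and glial markers (7 of 7 passed, 303.2 to 316.7 against 136.3 to 162.7) and the gut mesenchyme markers (5 of 7 called, 135.9 to 176.6 against 12.2 to 15.1) were higher, and the urogenital ridge markers were called lower, 9 of 9 (64.5 to 91.9 against 756.7 to 833.5). Their part in the members' differences was not tested.

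**Figure D3:**
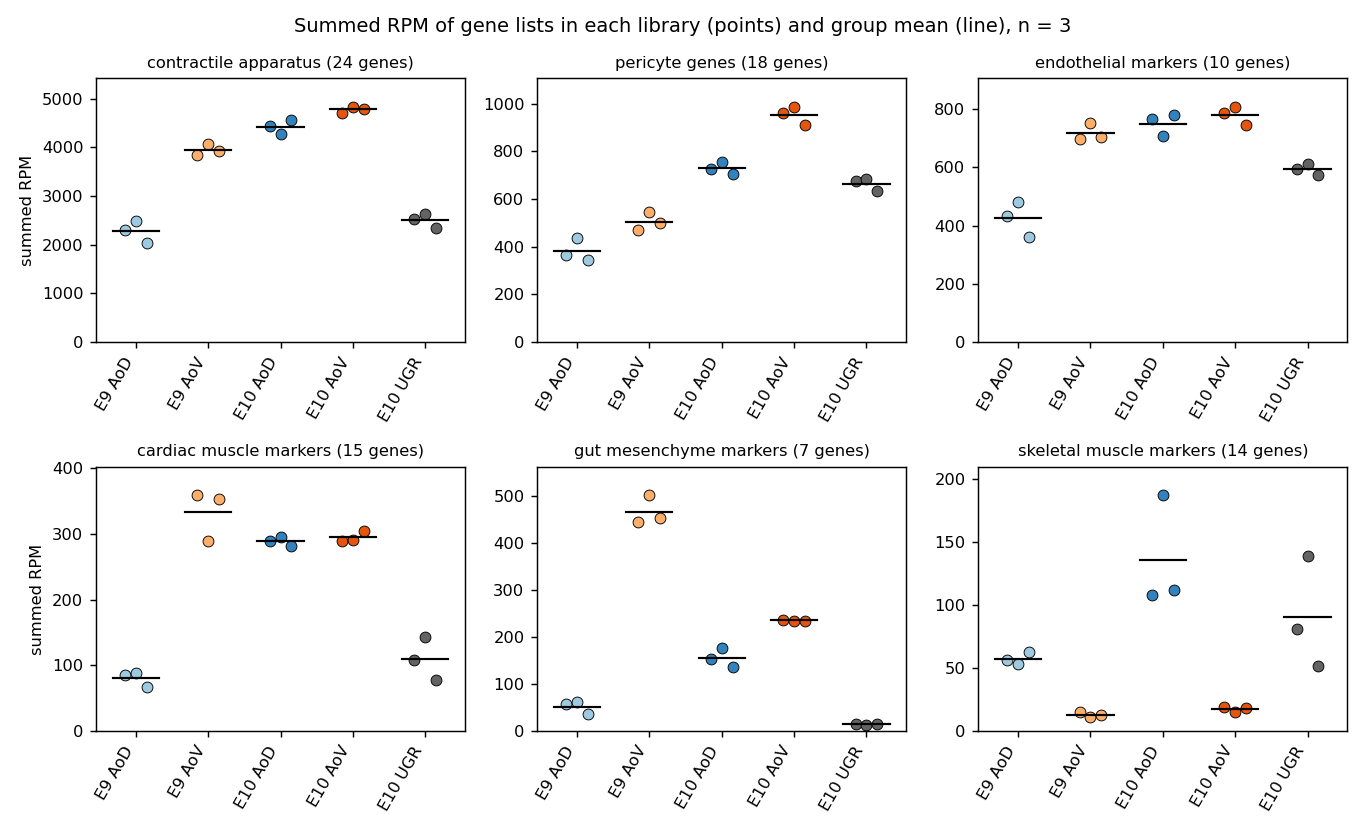
Summed RPM (linear axis from 0, a separate range for each panel) of 6 gene lists in each library, with points for libraries and a line for the mean of 3. The contractile sum is 2044 to 2481 RPM in E9 AoD, 3838 to 4070 in E9 AoV, 4277 to 4834 in the E10 aorta groups and 2336 to 2632 in E10 UGR, while the gut mesenchyme sum is highest in E9 AoV and the skeletal muscle sum is low in both AoV groups. Of the contractile sum, Acta2 is 26.6 to 49.4 RPM in E9 AoD and 287 to 373 in E10 AoD, so most of it comes from other listed genes.

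Whether the change with stage differed between AoV and AoD was tested directly, as the change in AoV minus that in AoD on the log2 scale. It was called lower for 5 members, against 6.89% of tested genes, namely Acta2 (-2.77 ± 0.34 SE, limma adjusted p = 2.50e-05), Myh11 (-1.46 ± 0.37, limma adjusted p = 7.40e-03), Cnn1 (-1.45 ± 0.37, limma adjusted p = 8.38e-03), Tagln (-1.2 ± 0.28, limma adjusted p = 4.38e-03) and Cspg4 (-1.13 ± 0.30, limma adjusted p = 9.85e-03). Myocd (-1.0) and Pdgfra (-0.92) passed with less than 2-fold, so 7 passed as lower, against 16.3% of tested genes, and Des was the member that passed with a larger change in AoV (0.90 ± 0.21, limma adjusted p = 4.18e-03). Rgs5 (0.90 ± 0.33, limma adjusted p = 0.0546, and 0.0332 with a replicate block) and Pdgfrb (-0.16 ± 0.13, limma adjusted p = 0.434) did not pass. Rgs5 also passed with a pseudocount of 1 RPM (limma adjusted p = 0.0236). It was called with quantile normalization (1.05, limma adjusted p = 0.0206) and with library weights (1.03, limma adjusted p = 0.00346). The median over the members was -1.06, and over all tested genes 0.015. Of the 24 contractile genes 18 had the smaller change in AoV and 1 the larger. Lists of other tissues differed in the same test: the hepatic and yolk sac type markers were called lower in 9 of 9 cases, the cardiac markers in 8 of 12 and the gut mesenchyme markers in 4 of 7, the endothelial markers passed as lower in 8 of 10, and the urogenital ridge markers passed as higher, like Des, in 9 of 9. Their part in the members' values was not tested. E9 AoD replicate 3 bore on the size of these values. Without it Tagln (-0.90) and Cspg4 (-0.91) passed with less than 2-fold, and Rgs5 (1.31) and Des (1.16) were called higher. Cspg4 also fell short of 2-fold without E9 AoV replicate 2 (-0.95) and without E10 AoV replicate 3 (-0.97). Without E9 AoD replicate 2, Myocd (-1.31) and Pdgfra (-1.04) were called lower as well. Without E9 AoV replicate 1, E10 AoD replicate 1, E10 AoV replicate 1 or E10 AoV replicate 2, Myocd was called too, between -1.01 and -1.14, while on leaving out 6 other libraries one at a time it did not pass (limma adjusted p = 0.0531 to 0.0675).

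Across the 15 libraries the members fell into sets with a like pattern, given here as a description, since the libraries share groups and stages. On log2(RPM + 0.1), Pearson's r was 0.989 for Tagln and Cnn1, 0.973 for Acta2 and Tagln and 0.960 for Acta2 and Cnn1. Myh11 correlated with Cspg4 at 0.914 and Myocd with Cspg4 at 0.910, while Myocd was at 0.805 with Myh11, 0.58 with Cnn1, 0.53 with Acta2 and 0.49 with Tagln. Rgs5 and Des formed a pair at 0.943, and Acta2 and Rgs5 were at 0.260. The ratio of Acta2 to Rgs5 in RPM was 8.09 to 12.2 in the E10 AoD libraries, 1.23 to 1.41 in E10 AoV and 0.147 to 0.297 in E10 UGR. In RPM, not corrected for length, the ratio of Tagln to Acta2 was 1.29 to 1.37 in the E9 AoD libraries and 0.736 to 1.30 in E10 UGR. It was 0.543 to 0.610 in E9 AoV, 0.683 to 0.729 in E10 AoD and 0.877 to 0.940 in E10 AoV. Per kilobase of exon, however, the E10 AoV mean of Tagln (194.4) was above that of Acta2 (189.2).

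**Figure D4:**
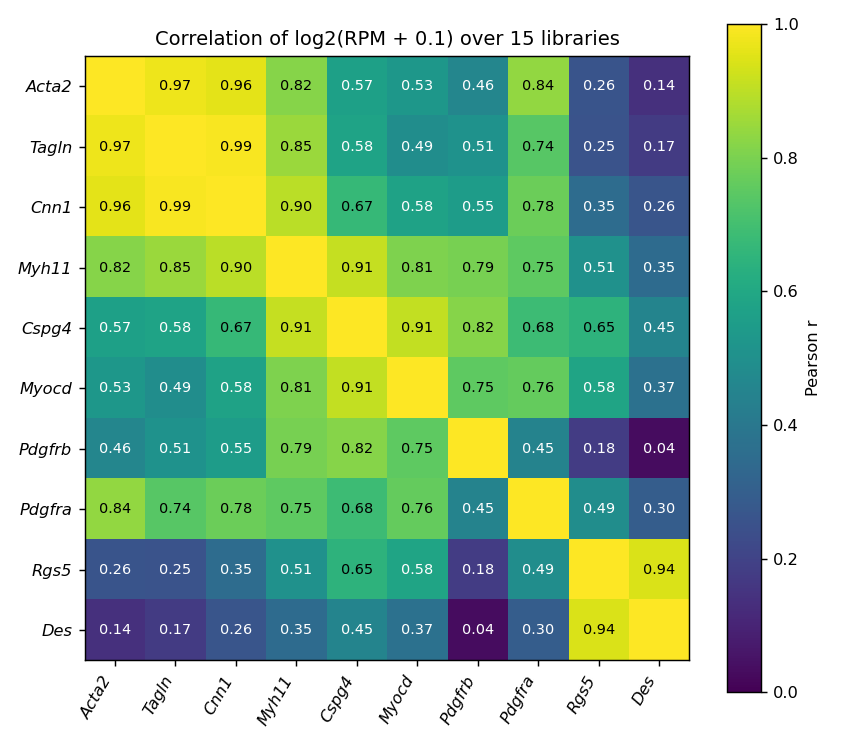
Pearson's r of log2(RPM + 0.1) between each pair of the 10 genes over 15 libraries, with lighter colours for higher values. Acta2, Tagln and Cnn1 form a block at 0.96 to 0.99, Cspg4 is at 0.91 with both Myh11 and Myocd, and Rgs5 and Des are at 0.94 with each other and at or below 0.65 with every other member.

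The members themselves were left out of a search among 15625 other genes with a mean of at least 1 RPM. Those whose pattern over the 15 libraries was most like that of a member were Cd44 for Acta2 (r = 0.978), Lama3 for Tagln (0.980), Cd34 for Cnn1 (0.986), Trim47 for Myh11 (0.990) and Lrrc8a for Myocd (0.957). They were Itga9 for Pdgfrb (0.981), Col5a1 for Pdgfra (0.980), Mamld1 for Cspg4 (0.989), Aplp1 for Rgs5 (0.993) and Sv2a for Des (0.980). For Acta2 the next were Ptrf (0.977) and Sdpr (0.976), for Cnn1 Sat1 (0.981) and Procr (0.978), and for Rgs5 Irf5 (0.991) and Hspa2 (0.989). With the members left out, none of the 3 genes nearest to any member was on the lists used here. Tagln and Cnn1, both members and both on the contractile list, were nearer to each other (0.989) than to any of these genes.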

How the data were processed

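RNA was measured by sequencing in 15 libraries, 3 for each of 5 groups. Per the study's methods, RNA was extracted on columns with DNase I treatment, made into TruSeq libraries and read as 50-base single ends. Alignment by the authors used TopHat and Bowtie 0.12.3 on NCBI37/mm9, and they counted them over Ensembl genes with GeneProf, sharing reads with several matches among genes by their unique reads. The values the authors deposited are RPM, rounded to 3 significant digits, with no correction for gene length, so long genes take more reads at the same level. The 12 deposited columns of the authors' own comparisons (log2 fold changes and adjusted p-values from DESeq) were not used.

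The table holds no counts. The RPM of 1 read in each library gave depths of 33.8 to 48.5 megareads (M), and because 58.1% to 60.7% of the values worth under 10 reads lay within 1% of a whole multiple of it, whole reads were not recovered and no count test was run. Limits from 3 reads cover counting error only.

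In R 4.3.3, limma 3.58.1 was fitted to log2(RPM + 0.1) of all 15 libraries, with group means and a trend of variance with level. Fold changes are on that scale, which understates those of low genes. A gene that reached 0.5 RPM in any library was tested (18553 of 28876), with Benjamini-Hochberg adjustment over all of them. A gene passed below an adjusted p of 0.05, and was called if its fold was also at least 2. The script was tested on simulated data. The comparisons were E10 with E9 in AoV and in AoD, AoV with AoD at each stage, each E10 aorta part with E10 UGR, and the change with stage in AoV minus that in AoD.

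The members and gene lists were chosen with earlier results of these data known. The lists were written by hand from general knowledge. They hold contractile, SRF and myocardin, pericyte, PDGF pathway and vessel wall matrix genes, and markers of skeletal muscle, cardiac muscle, endothelium, sclerotome, neural crest and glia, gut mesenchyme, urogenital ridge, erythroid cells, and liver and yolk sac. All members are named in each comparison, and of a list at most the 3 called genes with the largest change in a comparison whose groups do not overlap. A few further values (Myh6, Pdgfd and Actc1 in AoV, and Vtn and Ebf2 beside Rgs5) were chosen after their values were seen. Synm, which the table lists under more than 1 identifier, was left out of the contractile list.

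Replicate numbers come from the sample titles. Deviations from the group means correlated between same-numbered libraries of E9 AoD and E9 AoV at 0.452, 0.347 and 0.19, so a block on the number was fitted for those groups alone, added after seeing the data. No other pair of groups had all 3 correlations above 0.1. Alternatives were another pseudocount, filter or scaling, only the groups compared, no fold threshold, a test against a 2-fold change, library weights, a replicate block, and leaving out each library in turn.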

Additional observations from a re-analysis of the deposited data

Results flagged for a closer look

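The change from E9 to E10 differed between the ventral and the dorsal part for 8 members by the test of that difference itself (limma, change in AoV minus change in AoD on the log2 scale), and for 5 of them, all lower, by at least 2-fold, as for 6.89% of tested genes. The value was -2.77 for Acta2 (adjusted p = 2.50e-05), whose group means went from 41.4 to 344.0 RPM in AoD and from 268.0 to 337.0 in AoV. It was -1.2 for Tagln (adjusted p = 4.38e-03), with means of 54.8 and 242.0 RPM in AoD and 155.3 and 308.3 in AoV. It was -1.46 for Myh11 (adjusted p = 7.40e-03), with means of 0.788 and 22.1 RPM in AoD and 2.34 and 23.9 in AoV. It was -1.45 for Cnn1 (adjusted p = 8.38e-03), with means of 2.87 and 20.9 RPM in AoD and 10.4 and 29.7 in AoV. It was -1.13 for Cspg4 (adjusted p = 9.85e-03), with means of 3.22 and 38.3 RPM in AoD and 6.04 and 33.3 in AoV. In these 5 genes the E9 AoD mean was the lowest of the 4 aorta means, and E9 AoD replicate 3 was the lowest library of its group. Without that library the values were -2.48, -0.90, -1.17, -1.0 and -0.91, in the same order of genes. The other 3 were Myocd at -1.0 (adjusted p = 0.0253, and 0.0602 without that library), Pdgfra at -0.92 (adjusted p = 2.38e-04) and Des, with the larger change in AoV, at 0.90 (adjusted p = 4.18e-03).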

How the results depend on the processing

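Each of the 70 log2 differences of the members was recomputed under the alternatives, which gave 1690 values. Of these, 1658 kept their direction and their side of the threshold, 9 lost the call, 18 gained it and 5 changed sign. Of the 35 calls, 31 held under every alternative that kept the call rule, and none changed sign. The test against a 2-fold change made 22 calls in all. The sign changes were in 3 differences of at most 0.10 on the log2 scale, each on leaving out 1 library. They were Des in AoD with stage (-0.18 to 0.24 over the libraries left out, negative without E9 AoD replicate 3), Acta2 between E10 AoV and E10 AoD (-0.15 to 0.042, positive without E10 AoD replicate 1, E10 AoD replicate 3 or E10 AoV replicate 1) and Myh11 in the same comparison (-0.020 to 0.23, negative without E10 AoV replicate 2). The test itself, with no regard to fold, was lost 34 times and gained 31 times, most often for Myocd and Pdgfrb. Without a filter on low values, more genes share the adjustment and Myocd (stage in AoV, difference in change) and Des (E9 AoV with E9 AoD, E10 AoV with E10 UGR) did not pass (limma adjusted p = 0.0566 to 0.0875). With no fold threshold the members counted were 8 in AoV with stage, 9 between E9 AoV and E9 AoD, 3 between E10 AoV and E10 AoD, and 8 for the difference in change. Tested against a 2-fold change they were 1 between E10 AoV and E10 AoD, 3 between E9 AoV and E9 AoD, and 1 for the difference in change. With a pseudocount of 1 RPM, above the level of Myh11 in most E9 AoD libraries, that difference was called for 3, Myh11 (log2 -0.83) and Cspg4 (log2 -0.96) falling short of 2-fold. On leaving out single libraries the count was 4 to 6 in AoV with stage, 7 in AoD with stage, 2 between E10 AoV and E10 AoD, 5 to 6 between E9 AoV and E9 AoD, 6 against E10 UGR from either part, and 4 to 7 for the difference in change.

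A replicate block over all libraries left the number of members called at 4, 7, 2, 5, 6, 6 and 5 in the order of the comparisons (stage in AoV and AoD, position at E10 and E9, AoV and AoD against E10 UGR, difference in change), as without it. With it, 4 differences that did not pass otherwise did so, namely Pdgfrb as lower in E9 AoV than in E9 AoD (limma adjusted p = 0.0496) and as above E10 UGR in E10 AoV (0.0158), Myocd as above it in E10 AoD (0.0222), and Rgs5 in the difference in change (0.0332). The block within the E9 groups gave 5 calls, also as without it. Outside those groups 8 of 27 same-numbered correlations were above 0.1. In 29 of 54 matches of a library with another group, its own number correlated best. Among the E10 groups every same-numbered correlation was positive, from 0.0416 (replicate 1 of AoD and AoV) to 0.339 (replicate 2 of AoD and UGR). Between the stages they ran from -0.138 to 0.216. The labels do not say whether equal numbers mark the same dissection experiment. Scaling moved the median of all genes by less than 0.1 on the log2 scale. Depth was lowest for Myh11 in E9 AoD, at about 21 to 48 reads, and its part in that gene's values was not tested.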

Other observations

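The genes of the vessel wall matrix list, which the comparisons above leave out, rose with stage in 12 of 16 cases in AoV, where 1 fell (23.6% of all tested genes rose there), and in 13 of 16 in AoD (30.0%). In E9 AoV 13 of 16 were higher than in E9 AoD (27.5% of tested genes) and in E10 AoV 12 of 16 were higher than in E10 UGR (12.5%). Eln, the elastin gene, rose from 1.42 ± 0.217 to 9.53 ± 2.19 RPM in AoD and from 4.01 ± 0.0569 to 12.4 ± 1.82 in AoV (mean ± SD, n = 3). Fbln5, whose product helps to assemble elastic fibres, rose from 1.92 ± 0.51 to 11.9 ± 1.99 RPM in AoD. Tnc, the tenascin C gene, was at 123.0 ± 22.6 RPM in E9 AoV and 438.3 ± 33.1 in E10 AoV, against 17.8 ± 6.76 in E9 AoD and 17.3 ± 2.37 in E10 AoD. Col8a1, a collagen gene of the vessel wall, was higher in E10 AoV than in E10 AoD by 2.45 on the log2 scale (limma), and stood at a mean of 1.27 to 2.44 RPM in the other groups. The summed level of 12 erythroid markers ranged from 3319 to 15760 RPM among the E9 AoV libraries and from 4305 to 13670 among all others.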
